A study of Ovis aries with 3 samples.

Results

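The 10 genes described here encode proteins that liver and yolk sac release into the blood: *AFP*, *TTR*, *AHSG*, *SERPINA1*, *AMBP*, *SPP2*, *TF*, *APOA2*, *FGG* and *APOC2*. They are 10 of the 26478 genes listed in each library, of which 16670 carry a symbol, and they were chosen because earlier results of these data showed them high in a small set of cells. That set, called gated cells below, held every kept cell with 10 or more unique molecular identifiers (UMIs, each standing for 1 captured RNA molecule) summed over the 5 genes *APOA2*, *FGG*, *SERPINA1*, *AHSG* and *TTR*. It comprised 90 of 11329 kept cells of E16 HS, 142 of 10629 of E19 HS and 131 of 9618 of E19 HSTS. The levels of the 5 gating genes inside the gate are therefore given as a description. The other 5 members played no part in placing a cell in the gate.

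The libraries came from whole sheep embryos dissociated to single cells. HS are Hu sheep with the wild-type allele of the *T* gene, and HSTS are Hulunbuir short-tailed sheep carrying a *T* mutation. The comparison groups were E16 HS (day 16), E19 HS (day 19) and E19 HSTS (day 19), with 1 library each and no treatment. The E16 HS label names a single embryo while the methods mention several, and whether that library pooled them is not settled. With 1 library per group there was no replicate check, no test was run and no p-value is given, and day, breed, embryo and library cannot be told apart. Intervals in brackets are exact 95% intervals that cover counting error only.

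Plasma proteins are made first by the endoderm of the yolk sac and later by the hepatoblasts of the liver bud, and the same genes serve both tissues. Their shared transcription depends on liver-enriched factors such as HNF4A, whereas *HHEX* marks the foregut endoderm that forms the liver bud. The yolk sac endoderm also takes up maternal proteins through endocytic receptors such as LRP2 and its adaptor DAB2.

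Deposited totals ran from 94754580 to 128271878 UMIs per library. Gated cells made up 0.794% (0.639 to 0.976) of kept cells in E16 HS, 1.34% (1.13 to 1.57) in E19 HS and 1.36% (1.14 to 1.61) in E19 HSTS. Their median depth was 8958, 11429 and 13021 UMIs per cell in that order, against 9047, 6869 and 8654 UMIs in the other cells. Between 31 and 37 cell barcodes were shared by each pair of libraries, and none of them was a gated cell in both libraries of a pair. The 10 members took 6.27% of all UMIs of gated cells in E16 HS, 6.102% in E19 HS and 6.08% in E19 HSTS. This share was near-equal in the 3 libraries, but the members made it up in different proportions.

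The label of hepatic and yolk sac proteins was checked against marker lists in the 57, 114 and 106 gated cells with at least 30 gate UMIs (E16 HS, E19 HS and E19 HSTS). The 20 transcription factors of liver and endoderm summed to 201, 313 and 400.1 UMIs per 1000000 UMIs (CPM), against 74.1, 113 and 86.0 CPM in cells outside the gate, and 14, 17 and 17 of the 20 had a UMI. Erythroid genes were lower inside the gate (316, 222 and 262 CPM) than outside (1471, 1249 and 2194 CPM), as were endothelial genes (5.38, 28.9 and 1.49 CPM against 25.8, 86.6 and 55.7 CPM). Neural progenitor genes were lower by less in E19 HSTS (393 against 486 CPM), and myeloid genes there were level (17.2 against 17.0 CPM). Genes of gut and surface epithelium were higher inside (2835, 1179 and 1427 CPM) than outside (1932, 588 and 508 CPM), and that list held the most UMIs in 42 of 57, 66 of 114 and 61 of 106 gated cells. The gated cells thus carried epithelial and endodermal transcripts with the plasma proteins, and hepatocyte enzymes were sparse in them (below). Their tissue of origin was not labelled and is not named here.

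Levels are given as CPM over the summed UMIs of the gated cells of a library, and each ratio is CPM over CPM with an exact interval conditional on the 2 counts. Between E16 HS and E19 HS, *AMBP* and *SPP2* stood far higher in E19 HS, *TTR* stood far lower, and the remaining 7 members lay within a factor of about 2 in either direction. By a fixed rule of 2-fold, 3 members were higher in E19 HS (*SPP2*, *AMBP* and, at its edge, *APOC2*) and 1 was lower (*TTR*). Among all 2159 genes with at least 100 UMIs over the pair of gated sets, 6.58% were higher and 4.26% were lower by the same rule, and the members were chosen with these values in view, so the counts are only a description.

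**Figure D1:**
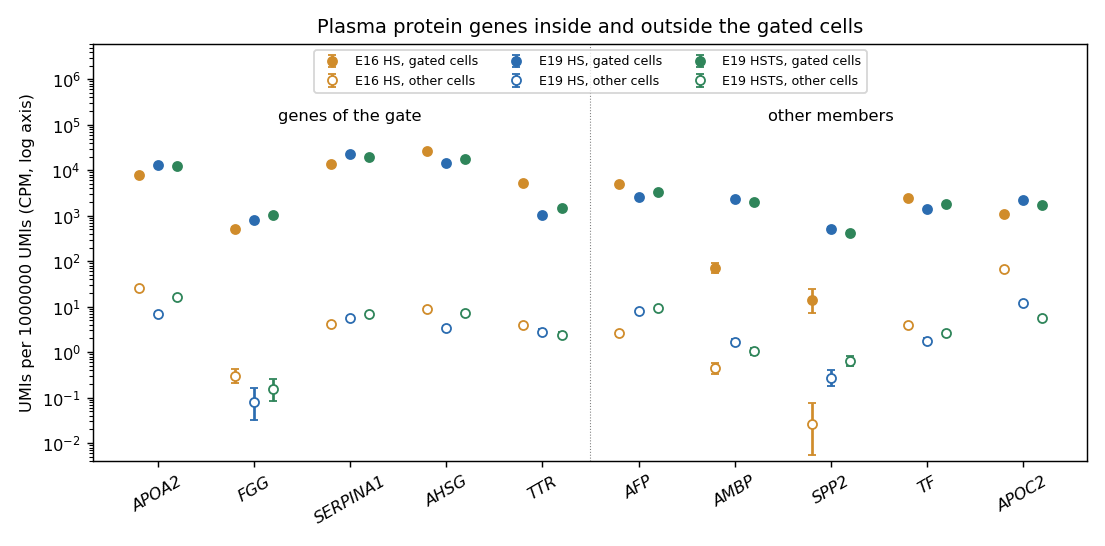
Levels of the 10 members in E16 HS, E19 HS and E19 HSTS, as CPM on a log axis with exact 95% counting intervals; filled symbols are gated cells and open symbols the other kept cells. *AMBP* sits at 72.6 CPM in gated E16 HS cells and at 2342 and 2033 CPM at day 19, and *APOC2* outside the gate at 68.1 CPM in E16 HS and at 12.1 and 5.74 CPM at day 19.

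Among the carrier proteins, *AFP* (ENSOARG00020002749), the fetal relative of albumin, was measured at 4901 CPM in gated E16 HS cells, 2571 CPM in E19 HS and 3306 CPM in E19 HSTS. Its level was thus highest at day 16, and 1.91-fold (1.83 to 1.99) lower in E19 HS. Over single gated cells the lowest *AFP* count was 0 in each library, the median was 2, 7 and 14 UMIs and the highest 638, 246 and 306 UMIs (E16 HS, E19 HS, E19 HSTS). The share of gated cells with an *AFP* UMI went the other way from its level, at 53.3%, 73.2% and 79.4%, so that fewer cells held more *AFP* each in E16 HS.

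*TTR* (ENSOARG00020024865), the carrier of thyroxine and of retinol-binding protein, reached 5322 CPM in E16 HS, 1043 CPM in E19 HS and 1503 CPM in E19 HSTS. It was 5.10-fold (4.83 to 5.40) lower in E19 HS than in E16 HS, the furthest of the members below 1. A *TTR* UMI was found in 93.3%, 88.7% and 89.3% of gated cells, shares that overlapped in their intervals, and the median level per cell was 1588, 859.9 and 835 CPM. The highest cell held 845 UMIs in E16 HS against 100 and 336 UMIs at day 19, so that the middle and the top of the distribution were both lower at day 19. *TF* (ENSOARG00020019153), transferrin, the plasma iron carrier, was at 2458, 1382 and 1828 CPM and was 1.78-fold (1.67 to 1.89) lower in E19 HS than in E16 HS.

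Of the protease inhibitors, *SERPINA1* (ENSOARG00020021121), alpha-1-antitrypsin, was at 13787 CPM in E16 HS, 22299 CPM in E19 HS and 19131 CPM in E19 HSTS. It was 1.62-fold (1.58 to 1.65) higher in E19 HS than in E16 HS, with a median of 41.5, 146.5 and 106 UMIs per gated cell in the 3 libraries. *AHSG* (ENSOARG00020000594), fetuin-A, a binder of calcium phosphate, was at 26874, 14813 and 17404 CPM and was 1.81-fold (1.78 to 1.85) lower in E19 HS. Its median cell nevertheless held 20 UMIs in E16 HS and 96 and 76 UMIs at day 19, the highest cells holding 3344, 977 and 3856 UMIs. As with *AFP*, a few cells carried most of the E16 HS total.

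*AMBP* (ENSOARG00020018944), the precursor of alpha-1-microglobulin and of the inhibitor bikunin, was at 72.6 CPM (55.8 to 92.8) in E16 HS, 2342 CPM (2268 to 2417) in E19 HS and 2033 CPM (1964 to 2104) in E19 HSTS. These levels rested on 63, 3784 and 3254 UMIs. Its ratio was 32.3 (25.2 to 42.1) for E19 HS over E16 HS and 28.0 (21.8 to 36.6) for E19 HSTS over E16 HS. *SPP2* (ENSOARG00020004890), a secreted phosphoprotein that binds bone morphogenetic proteins, was at 13.8 CPM (7.14 to 24.1), 519.8 CPM (485 to 556) and 419 CPM (388 to 452), from 12, 840 and 671 UMIs. The *SPP2* ratio was 37.6 (21.4 to 73.1) for E19 HS over E16 HS and 30.3 (17.3 to 59.0) for E19 HSTS over E16 HS; the pair of day 19 ratios share the E16 HS library. The intervals of *AMBP* and *SPP2* overlapped, so that neither stood above the other.

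The member apolipoproteins, *APOA2* and *APOC2*, and the fibrinogen chain *FGG* were, like *SERPINA1*, moderately higher at day 19. *APOA2* (ENSOARG00020000183), a main protein of high-density lipoprotein, was at 7713, 13054 and 12404.5 CPM, a ratio of 1.69 (1.65 to 1.74) for E19 HS over E16 HS. *APOC2* (ENSOARG00020005819), the cofactor of lipoprotein lipase, was at 1092, 2191 and 1755 CPM, and its ratio of 2.01 (1.87 to 2.16) had an interval that spanned the 2-fold limit. *FGG* (ENSOARG00020016663), the gamma chain of fibrinogen, was at 513, 804 and 1039 CPM, a ratio of 1.57 (1.41 to 1.75). It was detected in 60%, 75.4% and 73.3% of gated cells, and *APOC2* in 82.2%, 80.3% and 84.7%. All of *APOA2*, *APOC2* and *FGG* were already well represented at day 16, in contrast to *AMBP* and *SPP2*.

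**Figure D2:**
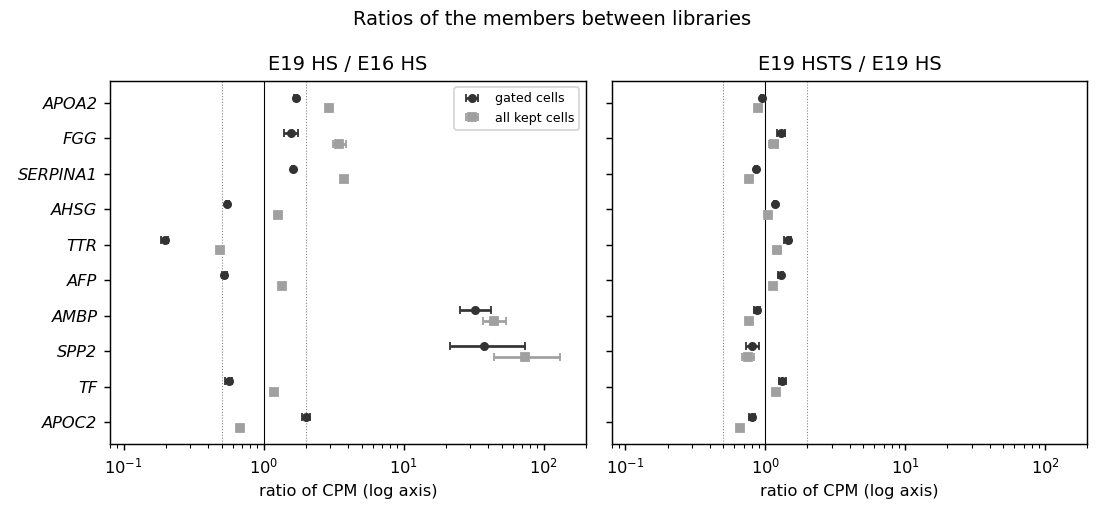
Ratio of CPM for each member between E19 HS and E16 HS and between E19 HSTS and E19 HS, on a log axis with exact 95% intervals; black circles are gated cells, grey squares all kept cells, and dotted lines mark 2-fold. *SPP2* (37.6) and *AMBP* (32.3) stand far to the right in the stage comparison, *TTR* (0.196) lies to the left, and in the breed comparison no member passes a dotted line.

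Detection of *AMBP* and *SPP2* followed their levels. An *AMBP* UMI was found in 23 of 90 gated cells of E16 HS (25.6%), in 118 of 142 of E19 HS (83.1%) and in 110 of 131 of E19 HSTS (84.0%). For *SPP2* the numbers were 5 (5.56%), 98 (69.0%) and 86 (65.6%) cells. No gated E16 HS cell held more than 6 *AMBP* or 7 *SPP2* UMIs, while the highest day 19 cells held 95 and 121 *AMBP* UMIs and 33 and 37 *SPP2* UMIs. After each cell was thinned to 3000 UMIs, which left 58, 100 and 96 gated cells, *AMBP* was detected in 19.0%, 94.0% and 90.6% and *SPP2* in 5.17%, 68.0% and 56.2% of them. E16 HS was thus the lowest library at equal depth per cell too, while the day 19 libraries changed places for *AMBP*.

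The difference was also present among the cells with most UMIs of the gating genes. In cells with 300 or more gate UMIs, of which there were 34, 76 and 71, *AMBP* was at 78.6 CPM (52.2 to 114) in E16 HS, 2989 CPM in E19 HS and 2549 CPM in E19 HSTS. It was detected in 9 of 34, 76 of 76 and 69 of 71 of these cells, with a median of 0, 42.5 and 34 UMIs. *SPP2* was at 33.7 CPM (17.4 to 58.8), 688 CPM and 557 CPM in the same cells, and was detected in 5 of 34, 75 of 76 and 65 of 71 of them. At day 16 *AMBP* was found in 6 of 14 cells with 100 to under 300 gate UMIs and in 4 of 9 with 30 to 99, and its share was thus not highest in the cells richest in gate transcripts.

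Within the day 19 libraries *AMBP* was higher in each higher stratum of gate UMIs. In E19 HS it was at 107 CPM in cells with 10 to 29 gate UMIs, 1196 CPM at 30 to 99, 1559 CPM at 100 to under 300 and 2989 CPM at 300 or more. The E19 HSTS series was 334, 679, 1801 and 2549 CPM. In E16 HS the corresponding levels were 16.1, 88.8, 188 and 78.6 CPM, and the level at 300 or more was below that of the stratum under it.

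*TTR* and *AFP* behaved differently over the strata. *TTR* was close between libraries in cells with 100 to under 300 gate UMIs (1372 CPM in E16 HS, 1203 CPM in E19 HS and 923 CPM in E19 HSTS), but at 300 or more it was 11823 CPM in E16 HS against 1074 and 1857 CPM. *AFP* at 300 or more was 11495, 3483 and 4522 CPM, while in the weakest stratum it was listed at 0 CPM in E16 HS (0 to 11.9) and at 47.2 and 46.0 CPM at day 19. *AHSG* at 300 or more was 63223, 19896 and 24032 CPM and *TF* 5185, 1799 and 2433 CPM. By contrast *SERPINA1* (29802, 29994 and 25828 CPM), *APOA2* (16710, 17137 and 16535 CPM), *FGG* (1016, 1076 and 1406 CPM) and *APOC2* (2158, 2891 and 2315 CPM) were within 1.5-fold of each other in the 3 libraries in that stratum, which has no upper limit and whose median depth was 8630, 14130 and 15012 UMIs. These strata are cut from sums that include *TTR*, *AHSG*, *SERPINA1*, *APOA2* and *FGG* themselves.

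**Figure D3:**
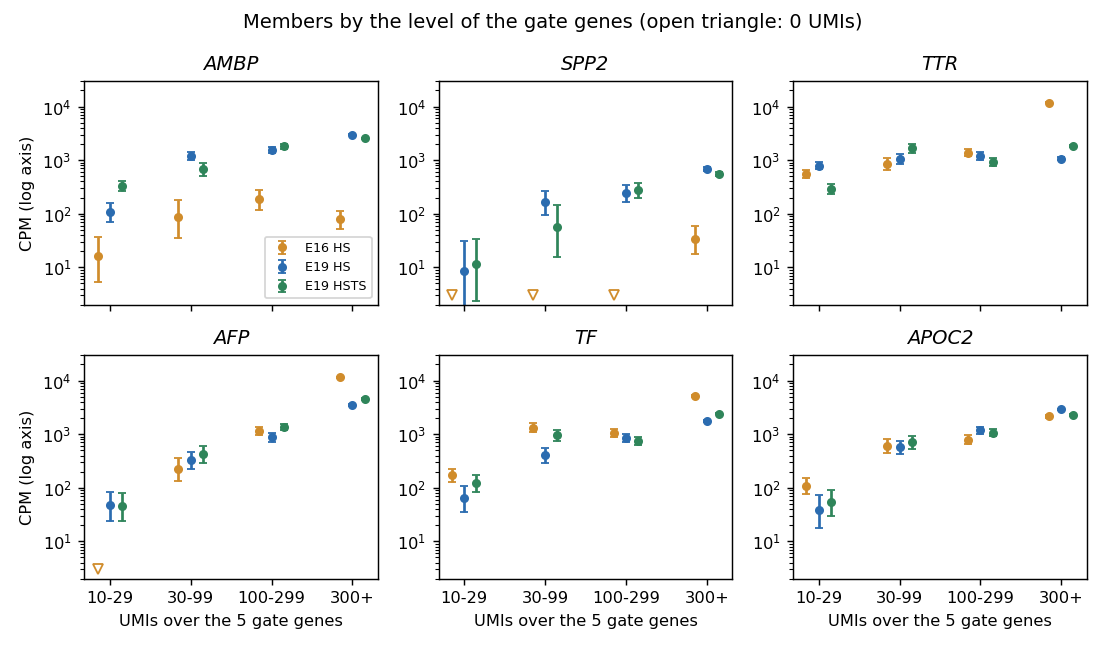
CPM (log axis) of *AMBP*, *SPP2*, *TTR*, *AFP*, *TF* and *APOC2* in gated cells split by their gate UMIs into 10 to 29, 30 to 99, 100 to under 300 and 300 or more, per library with exact 95% intervals; an open triangle marks 0 UMIs. *AMBP* lies below 200 CPM in every E16 HS stratum and exceeds 1000 CPM in the upper strata at day 19, while *TTR* at 300 or more is highest in E16 HS.

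The weakest stratum at day 16 was mostly led by epithelial genes. It held 33 of the 90 gated E16 HS cells, with *KRT18* at 3021 CPM and *EPCAM*, an epithelial adhesion gene, at 274 CPM, and 22 of the 33 had the gut and surface epithelium list as their leading list. In E19 HS this applied to 5 of 28 and in E19 HSTS to 12 of 25 such cells. At the edge of the gate, the 10 E16 HS cells with 10 to 11 gate UMIs had *TTR* at 387 CPM and *SERPINA1* at 241 CPM, and the 20 cells with 8 to 9 had 125 and 92.5 CPM. *APOA2* was at 398 CPM on either side of the edge.

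The strong E16 HS cells were of 2 kinds when split by *AQP8*, a water and ammonia channel gene; this split was chosen after the values were seen. Among cells with 30 or more gate UMIs, an *AQP8* UMI was present in 42 of 57 cells of E16 HS (73.7%, 60.3 to 84.5), in 3 of 114 of E19 HS (2.63%, 0.546 to 7.50) and in 11 of 106 of E19 HSTS (10.4%, 5.30 to 17.8). Outside the gate 0.988%, 0.324% and 0.232% of cells had one. The E16 HS cells with *AQP8* had *AFP* at 11178 CPM against 101 CPM in those without, a ratio of 111 (70.1 to 187), and *AHSG* at 61030 against 1063 CPM, a ratio of 57.4. *TTR* was at 11428 against 655 CPM, *SERPINA1* at 28634 against 5328 CPM and *TF* at 5036 against 963 CPM. *AMBP* had the opposite order, at 58.0 CPM with *AQP8* and 201 CPM without, 3.47-fold lower, its ratio of 0.288 having an interval of 0.161 to 0.503. The day 16 levels of *AFP*, *AHSG* and *TTR* thus came from cells with *AQP8*.

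The same order of *AMBP* was measured in E19 HSTS, where the 11 cells with *AQP8* had it at 546 CPM against 2593 CPM in the 95 without, 4.75-fold lower with a ratio of 0.211 (0.167 to 0.262). The median cell held 1 *AMBP* UMI with *AQP8* and 29 without. Of the 82 *AMBP* UMIs in the cells with *AQP8*, 43 and 27 lay in 2 cells that had 1 *AQP8* UMI each, so that the level rests on cells at the edge of the split. *SPP2* was at 193 against 537 CPM in these cells. In E16 HS *SPP2* had the other order, at 31.7 CPM (16.4 to 55.3) from 12 UMIs with *AQP8* and 0 UMIs (0 to 20.6 CPM) without. In E19 HSTS *TTR* was at 6157 against 1181 CPM, *AHSG* at 83871 against 12800 CPM, *SERPINA1* at 41129 against 20393 CPM and *AFP* at 7210 against 3527 CPM. With only 3 such cells in E19 HS, its split is not described.

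Other genes went with *AQP8*. *MT1A*, a metallothionein that binds zinc and copper, was at 5744 CPM with and 3.36 CPM without *AQP8* in E19 HSTS, but 620 of the 862 UMIs with *AQP8* lay in 1 cell, the median was 1 UMI and 7 of 11 cells had any. *DAB2*, the endocytic adaptor, was at 227 against 25.2 CPM, while *FABP1* went the other way, at 46.6 against 211 CPM; in E16 HS *FABP1* was at 26.4 CPM with *AQP8*, from 10 UMIs in 8 of 42 cells, and had 0 UMIs without. *FETUB*, a fetuin neighbouring *AHSG*, was at 4505 against 477 CPM, while *HHEX* was at 19.99 against 81.5 CPM. *FETUB* in E16 HS was at 1852 CPM with and 101 CPM without *AQP8*. In E16 HS cells with *AQP8*, *MT1A* was at 2382 CPM, *DAB2* at 346 CPM, *S100G*, a calcium-binding gene, at 644 CPM and *HNF4A* at 100.2 CPM, and *HHEX* had 0 UMIs. In the 15 E16 HS cells without *AQP8*, *HHEX* was at 28.0 CPM and found in 5 cells, *DAB2* was at 28.0 CPM and *MT1A* at 11.2 CPM. The 111 E19 HS cells without *AQP8* had *HHEX* at 40.9 CPM, *DAB2* at 8.18 CPM and *MT1A* at 2.97 CPM. In E16 HS and in E19 HSTS, *DAB2*, *MT1A* and *FETUB* were thus higher in cells with *AQP8*. The *HHEX* levels with *AQP8* rested on 0 UMIs in E16 HS and 3 UMIs in 2 cells of E19 HSTS, and in E16 HS the intervals with (0 to 9.73 CPM) and without *AQP8* (9.09 to 65.3 CPM) overlapped.

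**Figure D4:**
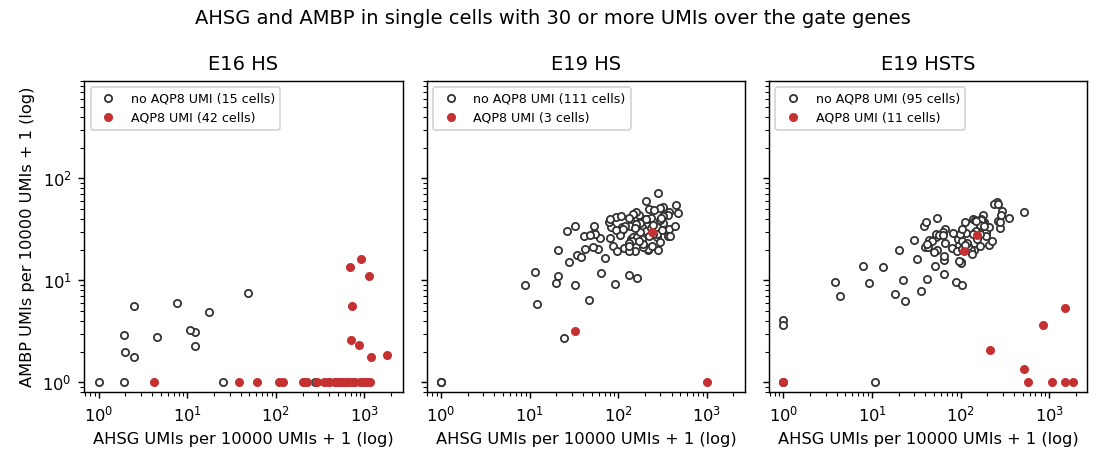
*AHSG* against *AMBP* in single cells with 30 or more gate UMIs, both as UMIs per 10000 plus 1 on log axes, 1 panel per library; red points have an *AQP8* UMI and open points have none. E16 HS holds 42 red and 15 open points, most of the red ones high in *AHSG* and at or near 0 *AMBP*, while E19 HS (3 red, 111 open) and E19 HSTS (11 red, 95 open) hold mainly cells with both transcripts.

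Leaving out the cells with *AQP8* turned the stage comparison of several members. Among gated cells without an *AQP8* UMI (47 in E16 HS and 139 in E19 HS), *AFP* was 68.0-fold, *AHSG* 35.9-fold, *APOA2* 12.1-fold, *SERPINA1* 9.76-fold, *APOC2* 8.90-fold, *FGG* 4.92-fold and *TF* 2.99-fold higher in E19 HS. *TTR* was then 1.79-fold (1.57 to 2.03) higher in E19 HS in place of lower. *AMBP* was 27.9-fold higher and *SPP2* at least 85.1-fold higher, the latter against 0 UMIs in E16 HS and taken at a floor of 3 counts. Of the 47 E16 HS cells, 15 had 30 or more gate UMIs. Against the 111 such E19 HS cells the ratios were smaller, at 29.3 for *AFP*, 16.2 for *AHSG*, 7.30 for *APOA2*, 5.28 for *APOC2*, 4.91 for *SERPINA1* and 2.42 for *FGG*, and *TF* and *TTR*, each at 1.67, did not reach 2-fold. *AMBP* was then 13.6-fold (9.82 to 19.5) and *SPP2* at least 36.6-fold higher. *AMBP* and *SPP2* were thus far above 2-fold with and without these cells, unlike the other 8 members.

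*AMBP* and *SPP2* were detected together in most strong day 19 cells. Of the 114 gated E19 HS cells with 30 or more gate UMIs, 110 had *AMBP*, 96 had *SPP2* and 95 had both, and of the 106 in E19 HSTS the numbers were 99, 83 and 81. In the 57 E16 HS cells they were 19, 5 and 2. At least 5 *AMBP* UMIs were present in 5 of 57, 96 of 114 and 84 of 106 cells, of which 2, 1 and 3 also had *AQP8*.

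Over all kept cells, where fewer cells of a type and less RNA per cell cannot be told apart, *SPP2* was 73.5-fold (44.3 to 132) and *AMBP* 44.4-fold (36.8 to 54.0) higher in E19 HS than in E16 HS. *SERPINA1* was 3.75-fold, *FGG* 3.48-fold and *APOA2* 2.91-fold higher, *AFP*, *AHSG* and *TF* had ratios of 1.36, 1.27 and 1.18, and *TTR* had a ratio of 0.487. The ratio of *APOC2* was 0.681 (0.657 to 0.706), below 1 although its gated level was higher at day 19. By the 2-fold rule 5 members were higher and 1 was lower, where 5.13% of 11336 genes were higher and 6.47% were lower.

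Between the breeds at day 19 the members were within 2-fold in gated cells and over all kept cells, but not outside the gate. Of the 10 members, 0 passed 2-fold in either direction between gated E19 HSTS and gated E19 HS cells, where 2.07% of 2654 genes were higher and 0.867% were lower in E19 HSTS. The carriers *TTR* (ratio 1.44, 1.35 to 1.53), *TF* (1.32, 1.25 to 1.40) and *AFP* (1.29, 1.23 to 1.34) were higher in E19 HSTS, as were *FGG* (1.29, 1.20 to 1.39) and *AHSG* (1.17, 1.15 to 1.20). *SPP2* (0.807, 0.728 to 0.894), *APOC2* (0.801, 0.762 to 0.842), *SERPINA1* (0.858, 0.845 to 0.871), *AMBP* (0.868, 0.828 to 0.910) and *APOA2* (0.9503, 0.932 to 0.969) were lower. Each of these intervals excluded 1 as counting error, but with 1 embryo per breed they do not measure the spread between embryos. Among gated cells without *AQP8* (119 in E19 HSTS and 139 in E19 HS), *AHSG* turned to a ratio of 0.722 (0.708 to 0.737) and *TTR* was at 0.981 (0.914 to 1.05), while *FGG* (1.31), *AFP* (1.16) and *TF* (1.08) stayed above 1 and the other 5 members below it. The stage and the breed comparison share the E19 HS library, so their ratios are not independent. Over all kept cells the counts were again 0 and 0, beside 1.17% of genes higher and 1.64% lower, and the lowest ratio was that of *APOC2* (0.654). Outside the gate *APOA2* (2.32, 2.11 to 2.55), *SPP2* (2.297, 1.41 to 3.85) and *AHSG* (2.17, 1.89 to 2.49) were higher in E19 HSTS and *APOC2* was lower by 2.10-fold (1.90 to 2.33). No share of all genes past 2-fold outside the gate is given, so these values are only a description.

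Other genes of the same function were taken from fixed lists and read in gated cells where a gene had at least 20 UMIs over the pair. For E19 HS against E16 HS this rule called 10.4% of 5304 genes higher and 7.01% lower, with a median ratio of 1.07 over all of them. Of 47 further plasma protein genes, 39 were listed by symbol and 29 had enough UMIs, and 18 of these were at least 2-fold higher and 4 at least 2-fold lower in E19 HS, with a median ratio of 2.78. Higher were *HPX*, the haem scavenger (84.1), *SERPINA6*, corticosteroid-binding globulin (16.8), *ITIH2*, a heavy chain that is joined to bikunin (10.8), the clotting factors *F10* (9.13) and *F2* (3.47), *APOH* (4.75), plasminogen, *PLG* (3.21) and antithrombin, *SERPINC1* (2.78). *ITIH3*, a further heavy chain, had 56 UMIs in E19 HS and 0 in E16 HS, at least 10.0-fold higher. Lower were *APOM* by 4.05-fold, *FGB*, the beta chain of fibrinogen, by 3.04-fold, *FETUB* by 3.01-fold and *RBP4*, the retinol carrier, by 2.37-fold. Albumin, *ALB*, had a ratio of 0.537 and *APOA1* of 0.547.

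Of 20 transcription factors of liver and endoderm, 9 had enough UMIs in that comparison. In E19 HS 3 were higher, *HHEX* (3.40, 1.67 to 7.82), *NR2F2* (2.50) and *ONECUT2* (2.42, 0.978 to 7.16, an interval that spanned 1). *HNF4A* had a ratio of 0.959. Of 16 genes of the absorptive yolk sac endoderm, 6 had enough UMIs, with *FABP1*, a fatty acid binder, higher (15.2) and *DAB2*, *FABP3*, *LRP2* and *SLC39A5* lower by 11.01-, 8.07-, 2.97- and 2.32-fold. Among 17 genes of mature hepatocyte function, 5 had enough UMIs, and *CPS1*, of the urea cycle, was higher on 22 UMIs against 1 (11.8, 1.91 to 488) and *HPD* was lower by 3.55-fold. Of 10 receptors for plasma proteins, 2 had enough UMIs, and *LRP2* was the one past the limit. These list counts compare gated sets in which 43 of 90 cells of E16 HS and 3 of 142 of E19 HS had *AQP8*, and the lists were not counted without those cells. Among cells with 30 or more gate UMIs and no *AQP8*, *FETUB* had the opposite order, at 101 CPM in E16 HS and 305 CPM in E19 HS. *DAB2* was at 28.0 and 8.18 CPM and *HHEX* at 28.0 and 40.9 CPM in those cells, closer together than in the whole gate.

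Fewer list genes passed 2-fold between the breeds, where 6.88% of 6062 genes were higher and 2.34% were lower in E19 HSTS with a median ratio of 1.08. Of 30 further plasma protein genes, 3 were higher (*FETUB* 2.83, *APOM* 2.21, *GC* 2.02) and 4 were lower (*C5* by 6.02-fold, *ITIH3* by 4.62-fold, *IGFBP1* by 4.42-fold and *HPX* by 2.46-fold). *GC* rested on 16 UMIs in E19 HSTS against 8 in E19 HS, and its interval of 0.816 to 5.45 spanned 1. Among 10 transcription factors, *NR5A2* (3.03), *GATA6* (3.03) and *HHEX* (2.09) were higher and 0 were lower. Among 6 absorptive genes, *DAB2* (2.78) and *LRP2* (2.11) were higher, and among 6 hepatocyte genes *ARG1* (3.64) was. The E19 HSTS gated cells included 12 cells with *AQP8* against 3 in E19 HS. In such cells of E19 HSTS with 30 or more gate UMIs, *FETUB* was at 4505 CPM and *DAB2* at 227 CPM. In the 3 cells of E19 HS, *FETUB* was at 863 CPM and *DAB2* had 0 UMIs. The part of cells with *AQP8* in these breed values was not tested.

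Over all genes, the largest ratio in gated cells of E19 HS against E16 HS was that of *HPX* (84.1, 23.1 to 697, from 313 and 2 UMIs), followed by *SPP2*, *AMBP*, *NNAT* (30.3, 13.8 to 83.1) and *SERPINA6*. Lower in E19 HS were *MT1A* by 281-fold (1044 CPM in E16 HS and 3.71 CPM in E19 HS) and *AQP8* by 200.4-fold (744 and 3.71 CPM), then *S100G* by 50.7-fold, *TM4SF18* by 18.7-fold and *WFDC2* by 13.0-fold. In gated E19 HSTS cells *MT1A* was at 542 CPM and *AQP8* at 172 CPM, between the other libraries.

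The genes most like the members were ranked by the lowest of their 3 ratios of CPM inside to CPM outside the gate. The first 10 were *SERPINA1* (2827), *AHSG* (2362), *FETUB* (2249), *FGG* (1694), *LECT2* (776), *TF* (630.4), *SPP2* (518), *KNG1* (417), *TTR* (369) and *AFP* (320.4), and *APOA2* (306) came next. The members *SPP2*, *TF* and *AFP*, which the gate did not use, stood among them, *AMBP* stood at 163, and *APOC2* was not among the first 25, with ratios of 16.0, 182 and 306 in E16 HS, E19 HS and E19 HSTS. The gate used *SERPINA1*, *AHSG*, *FGG*, *TTR* and *APOA2* and capped their counts outside it, so their ranks follow in part from the gate. The other members were chosen as high in such cells, so the ranks of the members are only a description.

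Several members lie beside other plasma protein genes in the RefSeq order of ARS-UI_Ramb_v3.0, used here for names and order alone. *AFP* neighbours *ALB*, which was at 196, 105 and 144 CPM in gated E16 HS, E19 HS and E19 HSTS cells, the same order as *AFP*. *AHSG* lies in a run with *FETUB*, *HRG* and *KNG1*. *FETUB* was at 830.4, 276 and 780.5 CPM, lowest in E19 HS as *AHSG* was, while *KNG1* was at 134, 299.5 and 323 CPM and lowest in E16 HS. *FGG* and *FGB*, which flank *FGA*, had opposite orders, *FGB* being at 286, 94.1 and 65.0 CPM. *APOE*, in the cluster of *APOC2*, was at 2829, 2402 and 2609.5 CPM.

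Outside the gate the 10 members summed to 118 CPM in E16 HS, 42.7 CPM in E19 HS and 52.1 CPM in E19 HSTS. Droplets take up free RNA from broken cells, which gives all cell types a like, low level and keeps genes in the ratio of their source. Setting *AHSG* outside the gate (9.12, 3.40 and 7.37 CPM) as the measure of free RNA, *SERPINA1* was found at 0.886, 1.10 and 0.835 times the level that its ratio to *AHSG* in gated cells gives; both are gating genes, whose counts outside the gate are capped by its limit. *FGG* was at 1.74, 0.436 and 0.348 times that level. Over the 8 groups of cells made by leading marker list, *AHSG* ran from 8.04 to 23.3 CPM in E16 HS, 2.05 to 9.20 CPM in E19 HS and 5.06 to 14.0 CPM in E19 HSTS.

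The other members exceeded that ratio to different degrees. *APOC2* was at 184 times the level set by *AHSG* in E16 HS, 24.0 times in E19 HS and 7.72 times in E19 HSTS. *APOA2* was at 9.64, 2.33 and 3.09 times, *TF* at 4.67, 5.50 and 3.35 times *AMBP* at 18.1, 3.16 and 1.21 times and *SPP2* at 5.69, 2.31 and 3.56 times. *AFP* was at 1.55 times in E16 HS but 13.6 and 6.55 times at day 19, and *TTR* at 2.15, 11.8 and 3.83 times. Of all *APOC2* UMIs, 11.02% lay in gated cells in E16 HS, against 77.1% in E19 HS and 83.3% in E19 HSTS. For *AHSG* these shares were 95.8%, 98.8% and 97.5%, for *SERPINA1* 96.3%, 98.7% and 97.9%, and for *AMBP* 55.8%, 96.2% and 97.0%.

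**Figure D5:**
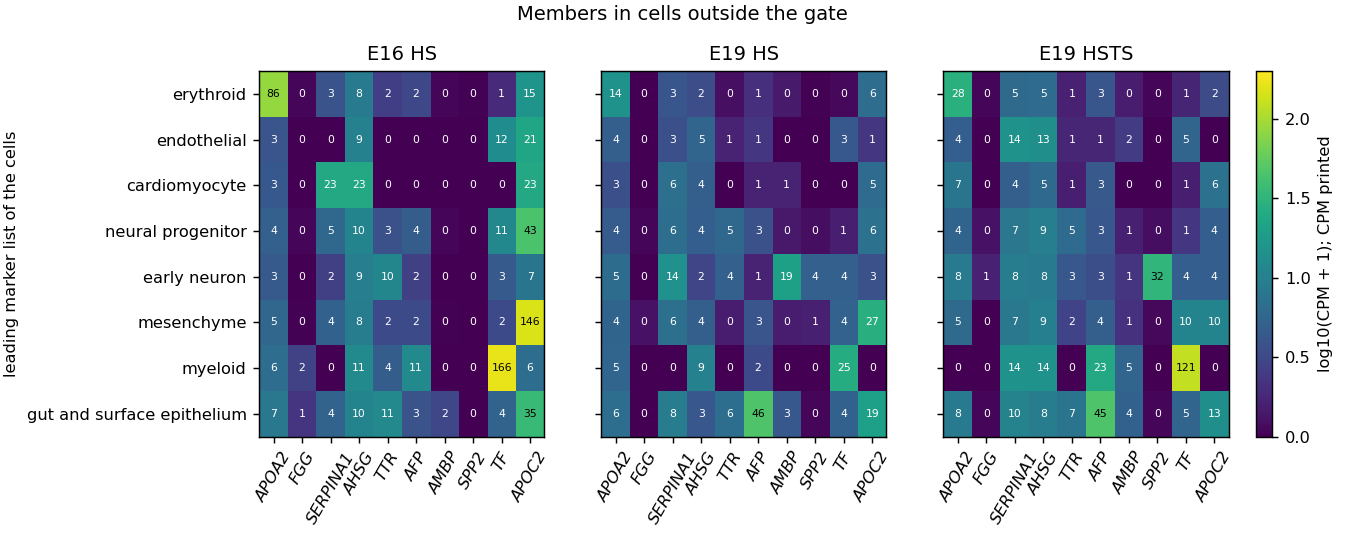
Heat map of CPM (printed; colour on a scale of log10 of CPM plus 1) of each member in cells outside the gate, grouped by the marker list with most UMIs, 1 panel per library. *APOC2* in mesenchyme-led cells (146 CPM) and *APOA2* in erythroid-led cells (86.0 CPM) stand out in E16 HS, *TF* in myeloid-led cells in E16 HS and E19 HSTS, and *AFP* in gut and surface epithelium-led cells at day 19.

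*APOC2* outside the gate was highest in cells led by the mesenchyme list in E16 HS and E19 HS, and in those led by gut and surface epithelium in E19 HSTS (12.9 CPM). In mesenchyme-led cells it was at 146 CPM (142 to 151) in E16 HS, 27.0 CPM in E19 HS and 9.80 CPM in E19 HSTS. It was detected in 55.8% of 2282 such cells, 15.0% of 1344 and 6.31% of 1061, and after thinning to 3000 UMIs in 27.9%, 7.26% and 2.54%. The median over the lists was 22.3, 5.46 and 3.86 CPM. The lower *APOC2* of E19 HS over all kept cells, beside its higher level in gated cells, went with these values.

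*APOA2* was highest in cells led by the erythroid list, at 86.0 CPM (82.5 to 89.5) in E16 HS, 13.8 CPM in E19 HS and 27.9 CPM in E19 HSTS, beside medians over the lists of 4.40, 4.53 and 5.97 CPM. An *APOA2* UMI was present in 59.5% of 1964, 19.2% of 1408 and 32.7% of 2603 erythroid-led cells, whose median depth was 14044, 17623 and 17554 UMIs, and in 23.3%, 5.05% and 8.94% after thinning. *TF* was highest in the few cells led by the myeloid list, at 166 CPM (134 to 205) with a UMI in 32 of 48 cells of E16 HS, 25.3 CPM in 8 of 57 cells of E19 HS and 121 CPM in 9 of 25 cells of E19 HSTS. The medians of *TF* over the lists were 3.89, 3.69 and 4.21 CPM.

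*AMBP* and *SPP2* had small signals outside the gate. In cells led by the early neuron list, *SPP2* was at 31.9 CPM in E19 HSTS, from 50 UMIs in 15 of 219 cells with at most 12 in a cell, and at 4.11 CPM from 6 UMIs in E19 HS. *AMBP* was at 19.2 CPM in such cells of E19 HS, from 28 UMIs in 5 of 239 cells.

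*AFP* outside the gate at day 19 lay in a distinct handful of cells, picked after the values were seen as those with 5 or more *AFP* UMIs. There were 0 such cells in E16 HS, 38 in E19 HS and 50 in E19 HSTS, and they held 62.5% and 68.8% of the *AFP* UMIs outside the gate in the day 19 libraries. Their median gate count was 0 UMIs. *AFP* was at 889.8 and 745 CPM in them, *AHSG* had 0 and 5 UMIs in all, *TTR* 0 and 1, and *SPP2*, *FGG*, *FETUB* and *HHEX* had 0 in both libraries. *DAB2* was at 835 and 902 CPM and found in 38 of 38 and 48 of 50 of these cells, *APOC2* was at 224 and 176 CPM and *FABP1* at 145 and 234 CPM. The genes with the highest ratios over the other cells included, in both libraries, *SLC34A1*, a phosphate carrier of the kidney tubule, and *LEAP2*, and in E19 HS also *LRP2* and *CDH16*, a kidney cadherin. These cells were left without a cell type name, as no list for that tissue had been fixed. *APOC2* was found in 23 of 38 and 37 of 50 of them, and *SERPINC1* in 37 of 50 in E19 HSTS. *AFP* at day 19 was thus also found in cells at 0 UMIs of *SPP2*; low *TTR*, *AHSG* and *FGG* follow in part from taking these cells outside the gate, where the gating genes sum to under 10 UMIs.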

How the data were processed

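Single cells of whole sheep embryos were profiled with 10x Genomics 3′ chemistry in 3 libraries, 1 per group, grouped by their titles. The authors aligned and counted the reads with Cell Ranger 6.1.2 against Ovis_aries_genome_v1.0 and deposited matrices of UMI counts per gene and cell; Seurat 4.1.1 and R 4.1.2 are also named in the submitters' processing notes. These deposited counts were restricted to cells in which the genes detected numbered 200 to 6000, the UMIs 1000 to 30000, and mitochondrial UMIs made up no more than 10%. UMIs were summed over cells of a library and expressed as CPM (Python 3.11.15, numpy 2.4.6, scipy 1.17.1). Levels carry exact Poisson intervals, shares exact binomial (Clopper-Pearson) intervals and ratios exact conditional intervals, at 95%. A count of 0 under a ratio was taken at a floor of 3 counts. No test was run, since each group held 1 library. The interval code was tested on simulated data.

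Doublets were not removed: Scrublet in scanpy 1.11.5 marked 198 cells in E16 HS, 0 in E19 HS and 193 in E19 HSTS. Why it marked 0 cells in E19 HS was not tested. Its scores served only an alternative that drops the highest 8% of cells. Other alternatives were stricter or no cell filters, gates of 5, 20 and 100 UMIs or 0.2% of UMIs, thinning to 3000 UMIs, TMM scaling (edgeR 4.0.16), means over cells, a ratio limit of 1.5 and other gene minimums; the gate of 100 UMIs and the omission of cells with *AQP8* were added after seeing the data. The members, gate and gene lists were chosen with earlier results of these data known. Genes named beyond the members are those past the 2-fold limit or discussed in their fixed lists, the 5 largest ratios in each direction over genes with at least 200 UMIs, the 10 genes most like the members with at least 500 UMIs, and neighbours within 3 genes; *AQP8* companions, genes of *AFP* cells and list signals outside the gate were chosen after their values were seen. Levels are 3′ UMI counts and are compared between libraries, not between genes. Some genes of the lists are not reported here. No sequences are printed.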

Additional observations from a re-analysis of the deposited data

Results flagged for a closer look

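Cells that the quality limits left out also held the plasma protein genes. Among them 16 of 1316 cells of E16 HS (1.22%, exact 95% interval 0.696 to 1.97), 23 of 1435 of E19 HS (1.60%, 1.02 to 2.40) and 22 of 1496 of E19 HSTS (1.47%, 0.924 to 2.22) had 10 or more UMIs over the 5 gating genes, a signal in cells that no comparison above used. Of these cells, 11, 3 and 8 exceeded 30000 UMIs, 2, 10 and 5 had under 1000 UMIs, and 3, 11 and 10 had over 10% mitochondrial UMIs. Some of these cells failed more than 1 limit where the numbers exceed the total, and *AMBP* and *SPP2* in them enter only the alternative with all deposited cells.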

How the results depend on the processing

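The higher level of *AMBP* and *SPP2* in gated E19 HS against E16 HS cells stayed past 2-fold under the alternatives listed here, from 20.5 to 79.0 and from 17.7 to 92.7, where *TTR* ran from 0.119 to 1.79 and was above 1 only without the cells with *AQP8* (1.79). In subsets by *AQP8* the ratios went lower, to 13.6 for *AMBP* (30 or more gate UMIs, without *AQP8*), 9.08 for *SPP2* and 0.0732 for *TTR* (30 or more, with *AQP8*, 3 cells in E19 HS). In that comparison the count of members at least 2-fold lower was 2 with the stricter cell filter and 2 with TMM scaling, 4 with a gate of 20 UMIs, 4 with 0.2% of UMIs, 4 with 100 UMIs and 4 at a limit of 1.5, 3 after thinning and 3 as a mean over cells, and 0 without *AQP8* cells. The count higher was 6 with all deposited cells, 6 with a gate of 5 UMIs, 6 at a limit of 1.5, 9 without *AQP8* cells and 2 with a gate of 100 UMIs, where *APOC2* was at 1.49; at the limit of 1.5, 17.2% of all genes with 100 UMIs were higher and 9.54% lower. Apart from the limit of 1.5, member counts under the alternatives in this paragraph have no share of all genes beside them. Those counts describe the members alone and cannot be set against all genes. With the gate of 5 UMIs *AFP*, *AHSG* and *TF* were above 1 (1.29, 1.36 and 1.39). Over all kept cells, 3 members were higher after thinning, 3 as a mean over cells, and 0 were lower with TMM scaling. For E19 HSTS against E19 HS, 1 gated member was higher with all deposited cells, and over all kept cells 1 was higher with all deposited cells and 1 was lower at a limit of 1.5, as were 5.87% of genes. TMM scaling shifted log2 ratios of gated cells by -0.13 and -0.04, and those of all kept cells by 0.25 and 0.06, in the stage and breed comparison. With at least 1 UMI per gene in place of 100, 26.3% of genes were higher and 17.3% lower in the gated stage comparison.

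The summed level outside the gate moved from 118 CPM in E16 HS to 113 with all deposited cells, 113 with a gate of 5 UMIs, 121 with 20 UMIs and 120.1 with 0.2%. In E19 HS it was 35.8 with the stricter filter, 39.7 with 5 UMIs, 46.7 with 20 UMIs, 44.6 with 0.2% and 47.9 after thinning. In E19 HSTS it was 45.2 with the stricter filter, 56.4 with all deposited cells, 48.6 with 5 UMIs, 55.4 with 20 UMIs, 55.0 with 0.2% and 56.8 after thinning. The share of gated cells was 1.78%, 1.66% and 1.85% with 5 UMIs (E16 HS, E19 HS, E19 HSTS), 0.565% and 1.12% with 20 UMIs (E16 HS, E19 HS), 0.579%, 1.08% and 1.13% after thinning, and 0.982% and 1.05% without the highest doublet scores (E19 HS, E19 HSTS). The cause of these moves was not tested. Of the values that answer a comparison, 82 moved by less than their counting interval or 1.5 times and 44 by more; of the values of single members or of all genes, 140 moved by less, 255 by more, and 1 that had passed 2-fold crossed to the other side of 1 (*TTR*). Ratios within 2-fold that crossed 1 count as moved, among them *AFP* (0.361 to 68.0), *AHSG* (0.378 to 35.9) and *TF* (0.411 to 2.99) in the gated stage comparison. No paired analysis was possible because each group held 1 library. Counting intervals do not cover the spread between embryos, and low counts limit *SPP2* in E16 HS, at 12 UMIs in 5 cells.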
